A study of Homo sapiens with 12 samples.

Results

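Genes of the ER-associated degradation (ERAD) machinery were followed in HepG2 cells under low and high glucose, with and without valproic acid (VPA). They were chosen by gene symbol, namely HERPUD1, SYVN1, SEL1L, OS9, EDEM1, EDEM2, EDEM3, DERL1, DERL2 and DERL3. Of these 10 symbols, 9 had a row in the count table of 16389 genes, and DERL3 was not analysed here. HepG2 cells derive from a human liver cancer and are a standard culture model of hepatocytes. All 12 libraries came from this line at passage 9, so the results describe 1 line in culture. The question addressed by the design was how gene expression responded to high glucose and to VPA, a short-chain fatty acid drug that inhibits histone deacetylases. LG cells were kept for 48 h at 5.5 mM glucose without VPA and HG cells for 48 h at 20 mM glucose without VPA. LGV cells had 5.5 mM glucose for 48 h and then 1 mM VPA for 12 h, and HGV cells had 20 mM glucose for 48 h and then 1 mM VPA for 12 h. Each group had 3 libraries, called replicates 1 to 3. The labels do not say whether these came from separate cultures, so p-values measure only the spread between these libraries, which may be technical. When untreated cells were harvested relative to the VPA treatment is not stated either.

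ERAD removes proteins that fail to fold in the endoplasmic reticulum (ER). Mannosidases of the EDEM family trim the sugar chains of such proteins, lectins such as OS9 recognise the trimmed chains, and a membrane complex built around the ubiquitin ligase HRD1 (the product of SYVN1) and its partner SEL1L moves them to the cytosol, where the ATPase VCP extracts them and the proteasome degrades them. HERPUD1 and the derlins are membrane components of this complex, and many genes of the pathway are targets of the unfolded protein response, the programme by which cells such as hepatocytes adjust the ER to their secretory load.

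Poly(A)-selected RNA was sequenced, and between 29798442 and 45572694 reads per library were counted on genes. Levels are given as CPM, the count of a gene relative to the total of its library, scaled with TMM factors that ran from 0.879 to 0.961 in LG, 0.977 to 1.006 in HG, 0.969 to 1.095 in LGV and 1.046 to 1.094 in HGV. A count of 3 reads, which is the limit that a count of 0 allows, stood for 0.0713 to 0.112 CPM, for counting error only, and all 9 genes lay far above it. All 10 hepatocyte markers examined were present, with a summed level of 53184 to 59823 CPM in LG, 53717 to 61461 in HG, 40571 to 41496 in LGV and 47314 to 62046 in HGV. Of 10 markers of other cell types, 4 had a row, and their summed level was 108 to 120 CPM in LG, 100 to 134 in HG, 130 to 189 in LGV and 188 to 239 in HGV, nearly all of it KRT19 and ACTA2, while CDH5 and COL1A1 were at 2.64 CPM or less and PTPRC, CD68, PECAM1, COL3A1, KRT7 and HBB had no row. Mitochondrial genes took 5.70% to 6.28% of the reads in LG, 7.50% to 7.72% in HG, 6.42% to 7.62% in LGV and 7.95% to 8.91% in HGV. The part of these differences in the results below was not tested.

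The promoter sequence is shown for HERPUD1. Of the 8 promoters of these genes that were searched, it was the only one with an exact match to a response element of the unfolded protein response. Elements that differ by a letter or lie outside the window would be missed. RefSeq promoter windows, from 250 bases before to 50 bases after the start site, were given for 8 of the 9 genes (not for DERL1). Read on the strand of its gene, each matched its own chromosome of GRCh37 at exactly 1 place. Other chromosomes were not compared. The windows were searched on both strands for the ER stress response element ERSE (CCAAT and CCACG with any 9 bases between them). They were also searched for ERSE-II (ATTGG and CCACG with any 1 base between them) and for the core of the unfolded protein response element, TGACGTGG. The stretch of the HERPUD1 promoter around its ERSE-II match runs on the plus strand of GRCh37, chr16:56965917-56965967, and its capitals mark the match, which lies from -117 to -107 relative to the start site.
HERPUD1 promoter: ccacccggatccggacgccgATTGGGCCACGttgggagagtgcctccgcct
No overlap with a match of the other motifs was found in it. Among all 35116 promoter windows of the table, 19 held ERSE-II (0.0541%), 27 held ERSE (0.0769%), 256 held the core element (0.729%) and 301 held any of these (0.857%). By gene, a match was found in 1 of the 8 ERAD genes, against 5 of 51 further ERAD genes, 8 of 16 ER chaperones and 0 of 27 proteasome subunits with a window. These matches are descriptions of letters in a window and not of factor binding.

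The genes lay at separate places in GRCh37. HERPUD1 (ENSG00000051108) runs from 56966054 to 56978776 on chromosome 16, SEL1L (ENSG00000071537) from 81937891 to 82000197 on chromosome 14 and SYVN1 (ENSG00000162298) from 64889252 to 64902003 on chromosome 11. OS9 (ENSG00000135506) runs from 58087624 to 58122125 on chromosome 12. EDEM1 (ENSG00000134109) lies on chromosome 3 from 5229331 to 5261643, EDEM2 (ENSG00000088298) on chromosome 20 from 33703167 to 33735139 and EDEM3 (ENSG00000116406) on chromosome 1 from 184659371 to 184724041. DERL2 (ENSG00000072849) lies on chromosome 17 from 5374574 to 5390131 and DERL1 (ENSG00000136986) on chromosome 8. Counts were taken over exons of Ensembl genes, and the overlaps given here are those of GENCODE exons. Exons of OS9 overlap those of AGAP2 on the other strand over 16.6% of their length, counting an unnamed gene there as well, and those of AGAP2-AS1 on the same strand. Exons of SYVN1 overlap those of MRPL49 on the other strand over 6.48% of their length and those of FAU on the same strand. Those of DERL1, DERL2 and EDEM1 overlap genes of the other strand over 6.44%, 4.72% and 9.37% of their length. Because the strand setting of the counting is unknown, reads from these stretches cannot be assigned with certainty.

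Per kilobase of exon, a scale used to set different genes side by side, HERPUD1 had the highest level of the 9 genes in every group and EDEM3 the lowest. The length was summed over all annotated exons, whether or not these cells use them, and ran from 1884 bases for EDEM2 to 18576 for EDEM3. These exons are those of GENCODE, not of the Ensembl annotation on which the reads were counted. The order of the genes depends on this length. Before the division, EDEM2 had a mean of 58.0 CPM in HG and OS9 250. In HGV, EDEM3 had a mean of 47.6 CPM, above DERL2 at 27.0. The mean level of HERPUD1 was 181 CPM per kb in LG, 52.2 in HG, 168 in LGV and 58.1 in HGV, and that of EDEM3 was 2.24, 2.02, 2.66 and 2.56 CPM per kb. In LG, HERPUD1 was followed by OS9 (52.9 CPM per kb), SEL1L (45.7), EDEM2 (42.5) and SYVN1 (39.3), whose ranges over libraries overlapped from each one to the next. EDEM1 (22.8), DERL2 (12.0) and DERL1 (8.44) came below them without overlap. In HG the order changed: EDEM2 (30.8 CPM per kb) and OS9 (28.8) overlapped behind HERPUD1, then SYVN1 (15.5) and SEL1L (14.5) overlapped. EDEM1 followed at 9.74 CPM per kb, and DERL2 (6.09) and DERL1 (6.06) overlapped. With VPA the 2 derlins stood in the reverse order, with DERL1 at 11.8 and DERL2 at 9.09 CPM per kb in LGV and at 7.80 and 4.23 in HGV, without overlap. The plot of levels per exon length shows these orders.

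**Figure D1:**
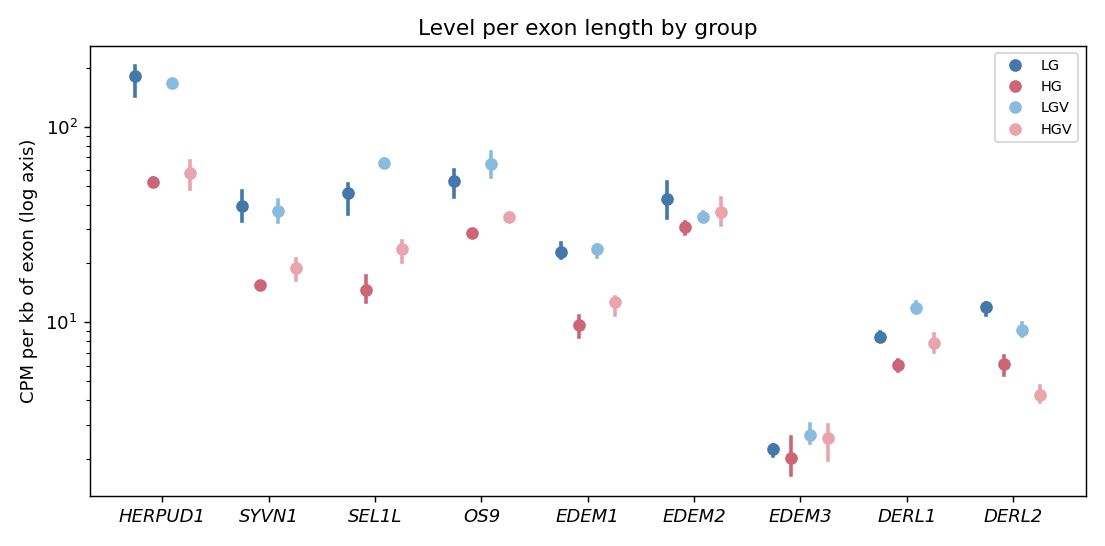
Level of each gene in CPM per kb of exon, on a log axis, with the mean of 3 libraries as a point and the range over libraries as a bar. HERPUD1 is highest and EDEM3 lowest in each of the LG, HG, LGV and HGV groups, and DERL1 lies above DERL2 only in the groups with VPA.

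Most ERAD genes were lower in high glucose than in low glucose. Without VPA, 8 of the 9 genes fell in HG against LG (an FDR of 0.05 or less) and none rose, and the exception was EDEM3. HERPUD1 fell most, by 3.42-fold, followed by SEL1L, SYVN1 and EDEM1, while EDEM2 and DERL1 fell least. Over all 15452 genes tested, 24.7% passed the same test, 12.7% as lower and 12% as higher, and the median log2 fold change was 0.01 against -0.96 over the 9 genes. The groups did not overlap for the same 8 genes, against 41.2% of all genes tested. A lower CPM in bulk RNA cannot tell fewer cells that express a gene from less RNA in each cell.

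HERPUD1, a membrane protein that helps to assemble the HRD1 complex, had 1031, 996 and 725 CPM in the LG libraries and 260, 257 and 277 CPM in the HG libraries. The HG libraries lay close together, and the lowest LG library, replicate 3, was still far above them. The log2 fold change was -1.77 (standard error 0.14, adjusted p = 7.46e-08), a 3.42-fold lower level in HG.

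SYVN1, which encodes the ubiquitin ligase HRD1, had 258, 209 and 181 CPM in LG and 81.9, 88.7 and 84.5 CPM in HG. It fell by 1.32 on the log2 scale (standard error 0.13, adjusted p = 1.81e-06). SEL1L, the adaptor that stabilises HRD1, had 479, 487 and 343 CPM in LG and 164, 121 and 131 CPM in HG, and every LG library was above every HG library by a wide gap for both genes. SEL1L fell by 1.63 (standard error 0.15, adjusted p = 4.68e-07).

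OS9, a lectin that delivers trimmed glycoproteins to SEL1L, had 521, 480 and 379 CPM in LG and 255, 242 and 253 CPM in HG. It fell by 0.86 on the log2 scale (standard error 0.13, adjusted p = 0.000129). Replicate 3 was the lowest LG library for OS9, SYVN1, SEL1L, HERPUD1, EDEM2, EDEM3, DERL1 and DERL2 alike. For EDEM1, replicate 2 was marginally lower than replicate 3.

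The 3 EDEM genes, whose products act on the mannose residues of misfolded glycoproteins, differed from one another. EDEM1 had 171, 144 and 145 CPM in LG and 72.4, 56.7 and 67.8 CPM in HG, and fell by 1.20 (standard error 0.13, adjusted p = 2.84e-06). EDEM2 had 97.9, 77.6 and 64.6 CPM in LG and 53.3, 61.7 and 58.9 CPM in HG, so that its lowest LG library was just above its highest HG library. Its log2 fold change was -0.44 (standard error 0.14, adjusted p = 0.0326). EDEM3 had 42.6, 44.0 and 38.5 CPM in LG and 48.1, 30.7 and 34.1 CPM in HG, and the groups overlapped because HG replicate 1 was the highest of the 6 libraries. Its log2 fold change of -0.13 (95% interval -0.45 to 0.19) did not pass the test (adjusted p = 0.566).

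The derlins, membrane proteins of the HRD1 complex that help substrates cross the ER membrane, both fell but by different amounts. DERL2 had 80.5, 79.4 and 69.7 CPM in LG and 42.8, 34.2 and 39.6 CPM in HG, a log2 fold change of -0.96 (standard error 0.13, adjusted p = 4.46e-05). DERL1 had 58.2, 62.2 and 55.6 CPM in LG and 44.6, 39.2 and 42.7 CPM in HG, a log2 fold change of -0.46 (standard error 0.13, adjusted p = 0.0127). The calls of DERL1 and EDEM2 did not hold in every fit that left out 1 library. Their log2 fold changes in those fits ran from -0.49 to -0.39 and from -0.57 to -0.25. DERL1 lost its call without HG replicate 2 (adjusted p = 0.0702), HG replicate 3 (0.0834) or LG replicate 1 (0.0534), and EDEM2 without HG replicate 1 (0.129), HG replicate 3 (0.121), LG replicate 1 (0.243) or LG replicate 2 (0.0601) and with upper quartile (0.0790) or library size (0.0881) scaling.

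**Figure D2:**
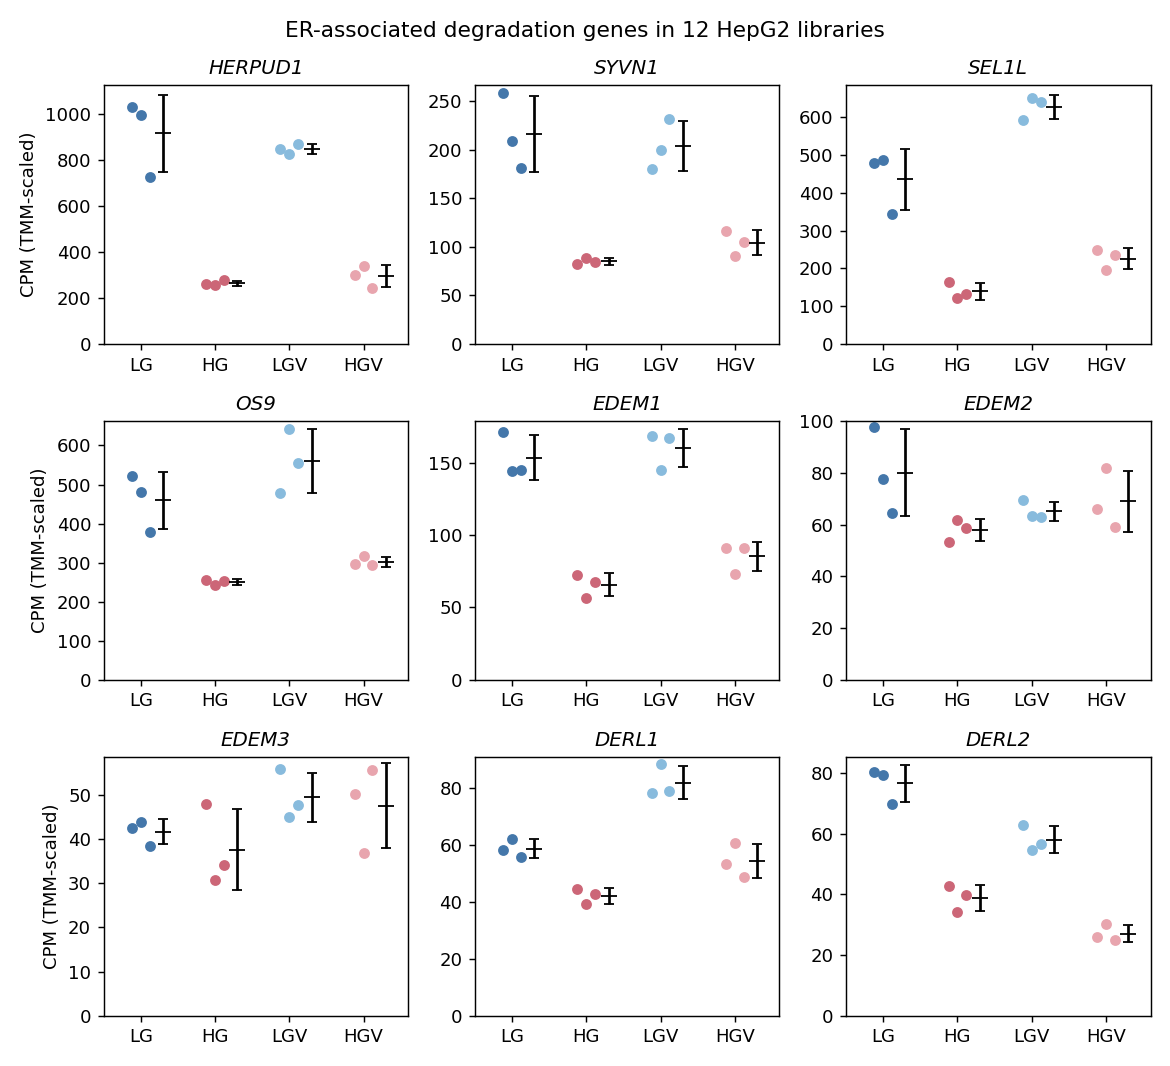
Level of each of the 9 ERAD genes in TMM-scaled CPM in the 12 libraries, with 1 point per library in replicate order and the mean and SD of each group of 3 beside the points. For HERPUD1, SEL1L, SYVN1, OS9, EDEM1, DERL1 and DERL2, every library in 20 mM glucose lies below every library in 5.5 mM glucose at the same VPA dose.

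The glucose difference was also present in cells given VPA, measured in 6 other libraries. In HGV against LGV, 7 of the 9 genes fell and none rose, and EDEM2 and EDEM3 did not pass the test. Among all 16208 genes tested, 40.7% passed, 19.5% as lower and 21.2% as higher, and the groups did not overlap for 51.4%, against the same 7 of the 9 ERAD genes. The median log2 fold change was -0.93 over the 9 genes and 0.01 over all genes. Comparing the results of both glucose comparisons, which share no library, 7 of the 9 genes were called lower in both, against 9.9% of the 15271 genes tested in both.

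HERPUD1 had 849, 828 and 872 CPM in LGV and 299, 339 and 244 CPM in HGV, again far apart. Its log2 fold change was -1.55 (standard error 0.14, adjusted p = 4.76e-07). SEL1L had 592, 650 and 639 CPM in LGV and 248, 195 and 235 CPM in HGV, a fall of 1.49 (standard error 0.14, adjusted p = 3.94e-07), and its LGV libraries were the highest of all 12 libraries. SYVN1 had 180, 200 and 232 CPM in LGV and 116, 90.9 and 105 CPM in HGV, a fall of 0.99 (standard error 0.13, adjusted p = 2.48e-05).

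For OS9, the LGV libraries had 479, 643 and 556 CPM and the HGV libraries 296, 316 and 293 CPM, and it fell by 0.91 (standard error 0.14, adjusted p = 6.05e-05). EDEM1 had 168, 145 and 167 CPM in LGV and 91.1, 73.3 and 91.0 CPM in HGV, a fall of 0.93 (standard error 0.13, adjusted p = 2.77e-05). The other EDEM genes showed overlapping groups. EDEM2 had 69.4, 63.4 and 62.8 CPM in LGV and 65.9, 81.9 and 59.2 CPM in HGV, a log2 fold change of 0.06 (95% interval -0.21 to 0.34, adjusted p = 0.727). EDEM3 had 55.8, 45.0 and 47.7 CPM in LGV and 50.3, 36.9 and 55.7 CPM in HGV, a log2 fold change of -0.08 (95% interval -0.38 to 0.23, adjusted p = 0.712). Leaving out HGV replicate 2 turned the sign of both, to -0.08 for EDEM2 and 0.08 for EDEM3.

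DERL2 had 63.0, 54.6 and 56.6 CPM in LGV and 25.9, 30.1 and 25.0 CPM in HGV, a fall of 1.12 (standard error 0.12, adjusted p = 3.40e-06). The HGV libraries held the lowest DERL2 levels of the 12. DERL1 had 78.2, 88.6 and 78.9 CPM in LGV and 53.2, 60.7 and 48.8 CPM in HGV, a fall of 0.61 (standard error 0.12, adjusted p = 0.000728). The plot of the glucose response without and with VPA sets both comparisons side by side.

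**Figure D3:**
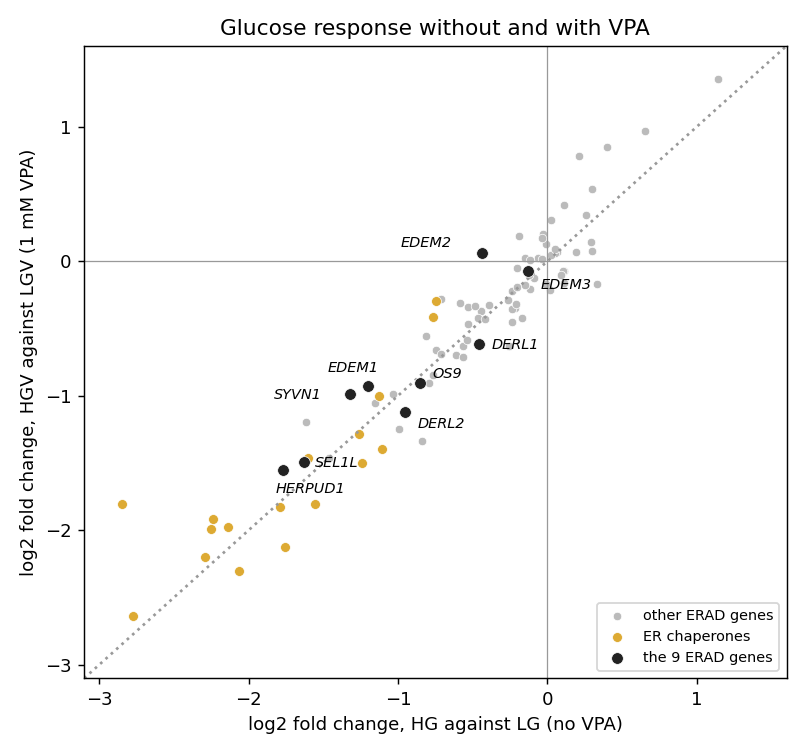
Fitted log2 fold change in high against low glucose without VPA (horizontal axis) and with 1 mM VPA (vertical axis), 1 point per gene, for the 9 ERAD genes, other ERAD genes and ER chaperones, with a dotted line of equal change. HERPUD1 and SEL1L lie lowest among the 9, at -1.77 and -1.63 without VPA and -1.55 and -1.49 with it, and EDEM2 is the only one of the 9 above zero with VPA.

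Whether VPA altered the glucose difference was tested as an interaction over the 12 libraries, and it was not detectable for any of the 9 genes. Among all 16389 genes, 7 (0.0427%) passed this test by edgeR's quasi-likelihood test, 202 by its likelihood ratio test and 162 by DESeq2, and 1852 had an unadjusted p under 0.05. None of the 9 genes passed with any of these tools. EDEM2, the gene called without VPA but not with it, had the largest interaction, 0.55 on the log2 scale (95% interval 0.12 to 0.97, unadjusted p = 0.0141, adjusted p = 0.289), and it was the only one of the 9 with an unadjusted p under 0.05. The interval ran from -0.02 to 0.77 for SYVN1, from -0.06 to 0.68 for EDEM1, from -0.14 to 0.67 for HERPUD1 and from -0.25 to 0.60 for SEL1L. For OS9 it ran from -0.39 to 0.37, for EDEM3 from -0.39 to 0.57, for DERL1 from -0.45 to 0.22 and for DERL2 from -0.48 to 0.23, so that these data do not show equal responses.

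VPA by itself moved few of the ERAD genes in low glucose. SEL1L and DERL1 rose in LGV against LG and DERL2 fell, and the other 6 did not pass the test. Among all 15944 genes tested, 41.6% passed, 21.7% as higher and 19.9% as lower, so that 3 of 9 is not above the background. The groups did not overlap for these 3 genes and for EDEM3, against 50.5% of all genes. From the LG and LGV levels given above, the log2 fold change was 0.54 for SEL1L (standard error 0.14, adjusted p = 0.00718) and 0.49 for DERL1 (standard error 0.11, adjusted p = 0.00278). DERL2 fell by 0.39 (standard error 0.12, adjusted p = 0.0150), a call that was lost with library size scaling (adjusted p = 0.157) and without LGV replicate 2 (0.0728) or 3 (0.0868).

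HERPUD1 had the highest CPM per kb and the largest glucose difference, and it showed no detectable difference between LGV and LG, with a log2 fold change of -0.10 (95% interval -0.40 to 0.21, adjusted p = 0.622). SYVN1 was at -0.07 (adjusted p = 0.722) and EDEM1 at 0.07 (adjusted p = 0.664), and their groups overlapped. The sign was positive with library size scaling for HERPUD1 (0.07) and SYVN1 (0.09). OS9 was at 0.30 (adjusted p = 0.124), EDEM3 at 0.26 (adjusted p = 0.104) and EDEM2 at -0.28 (adjusted p = 0.125). With upper quartile and with library size scaling, which moved the median of all genes from -0.01 to 0.08 and 0.16, OS9 and EDEM3 passed the test as well, OS9 did so without LGV replicate 1 (adjusted p = 0.0462) and EDEM2 without LG replicate 3 (adjusted p = 0.0226).

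In high glucose, 5 of the 9 genes rose with VPA and DERL2 fell. The genes that rose in HGV against HG were SEL1L, EDEM1, DERL1, SYVN1 and OS9, all by less than 2-fold. Over all 16188 genes tested, 46.1% passed, 25.8% as higher and 20.2% as lower, and the groups did not overlap for 54.6% of genes and for 6 of the 9. The median log2 fold change was 0.29 over the 9 genes and 0.02 over all genes. SEL1L rose by 0.70 (standard error 0.13, adjusted p = 0.000945), and its 3 HGV libraries were all above its 3 HG libraries. DERL2 fell by 0.52 (standard error 0.12, adjusted p = 0.00382).

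The other 4 calls were smaller. EDEM1 rose by 0.38 (standard error 0.12, adjusted p = 0.0269), DERL1 by 0.36 (standard error 0.11, adjusted p = 0.0197), SYVN1 by 0.29 (standard error 0.11, adjusted p = 0.0463) and OS9 by 0.27 (standard error 0.09, adjusted p = 0.0342). HERPUD1 was at 0.15 (95% interval -0.11 to 0.42, adjusted p = 0.332), EDEM2 at 0.25 (adjusted p = 0.129) and EDEM3 at 0.34 (adjusted p = 0.147), each with overlapping groups. EDEM3 passed without HG replicate 1 (0.53, adjusted p = 0.0208) or HGV replicate 2 (0.50, adjusted p = 0.0182), and EDEM2 with library size scaling (adjusted p = 0.0265). Of the 6 fits that left out a library, SYVN1 and OS9 each passed in 1, that without HGV replicate 2, and their highest adjusted p was 0.187 (without HGV replicate 1) and 0.127 (without HG replicate 2). EDEM1 passed in 2 of 6 and DERL1 in 4 of 6, and both lost the call without HG replicate 2 (adjusted p = 0.125 and 0.0850) or HG replicate 3 (0.0596 and 0.0641), EDEM1 also without HGV replicate 1 (0.0970) or 3 (0.0921). SEL1L and DERL2 passed in all 6.

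**Figure D4:**
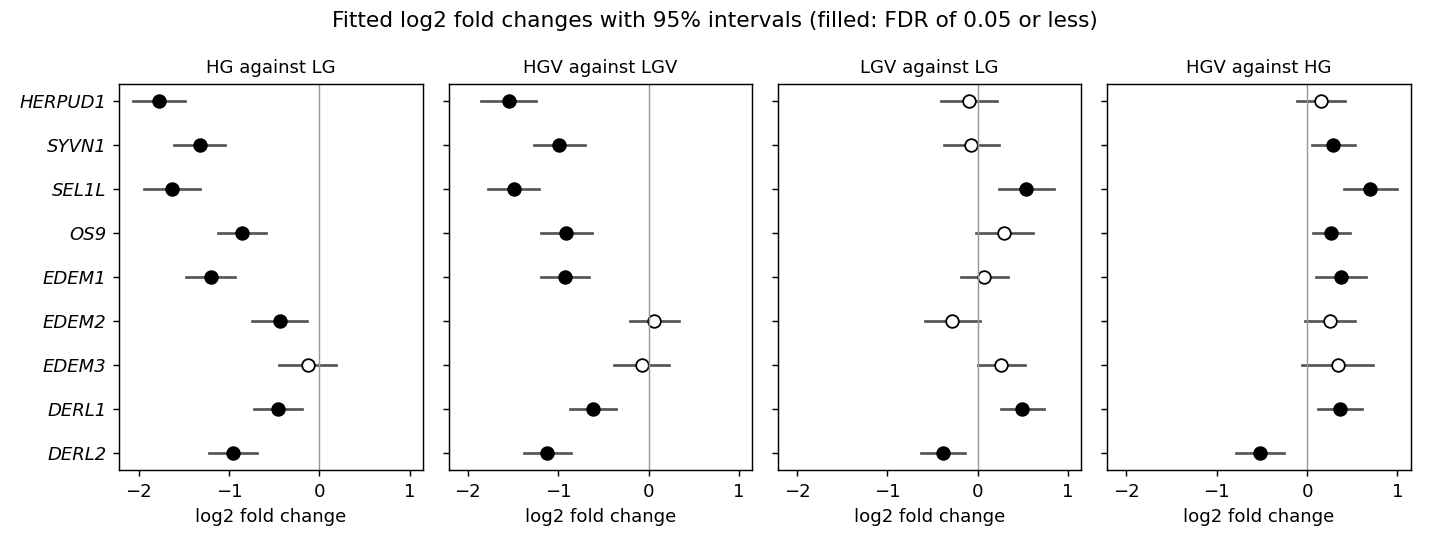
Fitted log2 fold change of each ERAD gene in 4 comparisons, with its 95% interval as a line and a filled point where the FDR is 0.05 or less. The glucose comparisons show 8 and 7 genes to the left of zero as called, and in the VPA comparisons SEL1L and DERL1 lie to the right of zero and DERL2 to the left in both.

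Patterns among related genes were described by the ratio of their read counts within a library, which does not depend on library scaling. They were chosen after the values were seen and carry no test. The count of DERL1 divided by that of DERL2 was 0.724, 0.783 and 0.798 in LG, 1.04, 1.14 and 1.08 in HG, 1.24, 1.62 and 1.4 in LGV and 2.05, 2.02 and 1.95 in HGV. No 2 of the 4 groups overlapped, and the ratio was higher with VPA and higher in high glucose. SEL1L divided by SYVN1 was 1.86, 2.32 and 1.89 in LG, 2.01, 1.37 and 1.55 in HG, 3.29, 3.25 and 2.76 in LGV and 2.13, 2.14 and 2.23 in HGV, so that LGV stood above the other groups. EDEM1 divided by EDEM2 lay between 1.75 and 2.24 in LG and between 2.29 and 2.66 in LGV, above its range of 0.918 to 1.36 in HG and 0.895 to 1.54 in HGV. EDEM1 divided by EDEM3 split the same way, from 3.28 to 4.02 in LG and 3.01 to 3.50 in LGV against 1.51 to 1.99 in HG and 1.63 to 1.99 in HGV.

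**Figure D5:**
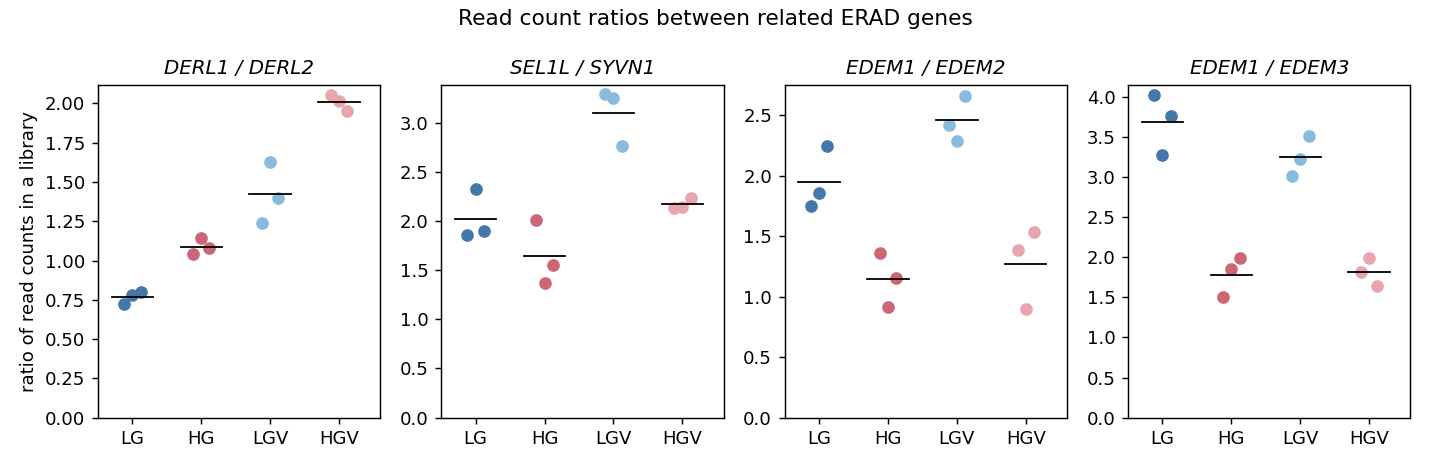
Ratio of read counts of related ERAD genes within each library, with 1 point per library and the mean of each group of 3 as a line. DERL1 over DERL2 is lowest in LG (0.724 to 0.798) and highest in HGV (1.95 to 2.05), and the ratios of EDEM1 to EDEM2 and to EDEM3 are lower in both high glucose groups.

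Other ERAD genes went in both directions, more of them down. A list of 69 further ERAD genes held ubiquitin enzymes, lectins, extraction factors, deubiquitinases and shuttle factors. It also held some genes of folding and translocation, such as CANX, which is on the chaperone list too, and TRAM1. Of the 69 genes, 25 were lower and 2 higher in HG against LG, and 29 lower and 7 higher in HGV against LGV. Their median log2 fold change was -0.19 and -0.20. With VPA, 20 were lower and 8 higher in LGV against LG, and 21 lower and 7 higher in HGV against HG, with medians of -0.12 and -0.08. The share called was 39.1% and 52.2% for glucose, against 24.7% and 40.7% of all genes, and 40.6% in both VPA comparisons, against 41.6% and 46.1%. None passed the interaction test. In both glucose comparisons 23 of the 69 were called lower (33.3%) and 2 higher, against 9.9% and 8.85% of the 15271 genes tested in both. This list, too, was chosen with earlier results of these data known.

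VCP, the ATPase that pulls substrates out of the membrane, had 690, 666 and 552 CPM in LG, 396, 426 and 426 in HG, 371, 426 and 441 in LGV and 336, 373 and 302 in HGV. The LG libraries were apart from all others. VCP fell by 0.59 in HG against LG (adjusted p = 0.00223), by 0.61 in LGV against LG (adjusted p = 0.00163) and by 0.30 in HGV against HG (adjusted p = 0.0351), and was at -0.31 in HGV against LGV (adjusted p = 0.0668). VIMP and SELK, selenoproteins of the ER membrane that bind the derlins and VCP, were among the partners with the largest glucose differences. VIMP fell by 1.46 without VPA (adjusted p = 7.76e-07) and by 1.46 with it (adjusted p = 4.53e-07). SELK fell by 1.61 (adjusted p = 1.28e-06) and by 1.20 (adjusted p = 9.46e-06), and in high glucose it rose with VPA by 0.86 (adjusted p = 0.000274).

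UBE2J1, a ubiquitin-conjugating enzyme of the ER membrane that works with HRD1, had 95.5, 108 and 85.0 CPM in LG, 49.6, 44.9 and 48.7 in HG, 73.6, 79.9 and 83.7 in LGV and 33.0, 34.4 and 33.6 in HGV. It fell by 0.99 without VPA (adjusted p = 2.77e-05) and by 1.25 with VPA (adjusted p = 5.25e-07). YOD1, a deubiquitinase associated with VCP, fell by 0.84 (adjusted p = 0.00795) and 1.34 (adjusted p = 8.37e-06) in the same comparisons. CANX, the lectin chaperone calnexin, which is also on the chaperone list, fell by 1.11 (adjusted p = 1.15e-05) and 1.39 (adjusted p = 1.42e-06), and TRAM1, a protein of the translocation channel, by 1.15 (adjusted p = 4.35e-05) and 1.05 (adjusted p = 3.25e-06). ERLEC1, a lectin related to OS9, fell by 0.53 (adjusted p = 0.00832) and 0.34 (adjusted p = 0.0226).

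A few partners went the other way in high glucose. In cells given VPA, TMEM129 (0.85, adjusted p = 0.000759) and STUB1 (0.78, adjusted p = 0.00137), both ubiquitin ligases, and ERLIN2 (0.54, adjusted p = 0.00201), part of a complex for ERAD of membrane receptors, rose. For STUB1 the overlap with a gene of the other strand covers 42.5% of its exon length.

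Under VPA the largest rise in the list was that of SVIP, a small protein that binds VCP and is known as an inhibitor of ERAD, leaving out partners whose mean was under 1 log2 CPM. SVIP had 5.57, 7.61 and 8.17 CPM in LG and 21.9, 18.6 and 18.0 in LGV, and 7.96, 7.33 and 7.59 CPM in HG and 16.6, 19.8 and 16.6 in HGV. The libraries with VPA lay clearly above those without. SVIP rose by 1.46 in low glucose (adjusted p = 1.38e-05) and by 1.21 in high glucose (adjusted p = 1.10e-05). FAM8A1, a component of the HRD1 complex, rose by 0.52 (adjusted p = 0.00306) and 0.46 (adjusted p = 0.00690). In low glucose YOD1 (0.55, adjusted p = 0.0306) and the ER membrane protein TMEM33 (0.43, adjusted p = 0.0130) rose. CCDC47, also of the ER membrane, rose by 0.43 in high glucose (adjusted p = 0.0132). It was also higher with VPA in low glucose, at 207 to 235 CPM in LGV against 157 to 181 in LG.

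Among partners that fell with VPA, UBXN8 and UBXN6, which recruit or bind VCP, fell by 1.11 (adjusted p = 1.95e-05) and 1.01 (adjusted p = 1.67e-05) in low glucose and by 1.19 (adjusted p = 4.24e-05) and 0.91 (adjusted p = 4.75e-05) in high glucose, and for UBXN6 28.8% of the exon length overlaps genes of the other strand. FBXO6, which recognises glycoproteins for ubiquitination, fell by 1.28 (adjusted p = 0.000621) and 1.4 (adjusted p = 0.000307), but its level was only 1.69 to 6.86 CPM and 50.5% of its exon length overlaps a gene of the other strand. TMEM129 fell by 1.27 in low glucose (adjusted p = 0.00104), and USP13, a deubiquitinase, by 0.79 in high glucose (adjusted p = 6.08e-05). TMEM129 was also lower with VPA in high glucose, at 33.7 to 38.3 CPM in HGV against 57.8 to 64.6 in HG. USP13 was also lower with VPA in low glucose, at 45.5 to 54.4 CPM in LGV against 56.4 to 68.5 in LG.

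The ER chaperones, which help secretory proteins to fold, were lower in high glucose nearly throughout. All 17 on the list fell in HG against LG (median log2 fold change -1.76) and 16 of 17 in HGV against LGV (median -1.81), where 24.7% and 40.7% of all genes were called. HSPA5, the ER HSP70 known as BiP, fell by 2.06 (adjusted p = 1.26e-08) and by 2.3 (adjusted p = 3.46e-08). With VPA, 1 chaperone was higher and 1 lower in low glucose, and 2 higher and 2 lower in high glucose, where 41.6% and 46.1% of all genes were called. HSPA5 was at 0.04 (adjusted p = 0.848) and -0.17 (adjusted p = 0.275).

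The genes whose log2 CPM followed each ERAD gene most closely over the 12 libraries differed from member to member. These correlations are over libraries that fall into 4 groups and share their scaling, among the 11954 genes whose mean log2 CPM was 1 or more, and are given as a description. Nearest to HERPUD1 were MANF (Pearson r 0.994), CALR (0.991) and CRELD2 (0.988), all ER proteins. Nearest to SEL1L were DNAJB11 (0.994), TMEM66 (0.993) and MAGT1 (0.991), and nearest to SYVN1 were TSPYL2 (0.988), SEC24D (0.985) and NAV2 (0.983). OS9 was closest to MAFK (0.990), ATF6 (0.989) and C9orf78 (0.988). EDEM1 was closest to TIMM17A (0.987), NUCB2 (0.983) and ENTPD7 (0.982), DERL2 to ATP6V0A2 (0.982), UBE2J1 (0.979) and C9orf3 (0.978), and DERL1 to BCL10 (0.976), CACYBP (0.975) and RNF130 (0.974).

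EDEM2 and EDEM3 had weaker nearest genes, TBC1D25 (0.946), RIC8A (0.880) and CTSB (0.880) for EDEM2 and BTAF1 (0.960), ZNF267 (0.944) and ZNF841 (0.941) for EDEM3. Among the 9 genes themselves, the closest pair was SEL1L and OS9 (0.968) and the most distant was EDEM2 and EDEM3 (-0.087).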

How the data were processed

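The authors trimmed the reads with the FASTX Toolkit, used STAR to align them to GRCh37, and used featureCounts with Ensembl genes. They deposited raw counts for genes averaging at least 10 reads per sample. The strand setting of the counting is not stated.

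Counts were tested here with edgeR 4.0.16 in R 4.3.3 (TMM factors, quasi-likelihood F test). Each pairwise comparison was fitted on its own 6 libraries and the interaction on 12, leaving out genes whose mean count was under 10. P-values were adjusted over all genes tested by the Benjamini-Hochberg method, and an FDR of at most 0.05 was a call. The members and gene lists were chosen with earlier results of these data known. Besides the 9 genes, up to 4 higher and 4 lower genes of the lists (further ERAD genes, ER chaperones, regulators of the unfolded protein response) with the largest change and mean log2 CPM of 1 or more, and HSPA5, XBP1, VCP and ERLEC1, could be named per comparison. A few genes within this rule are not reported here. The 3 nearest genes used log2 CPM with a prior count of 2. Proteasome subunits, hepatocyte markers and markers of other cell types were further lists. Positions, exon lengths and overlaps came from GENCODE on GRCh37, which matched 97.47% of the identifiers and is not the annotation used for counting. Promoter windows came from RefSeq (GRCh38.p14) and were placed in GRCh37 by exact match. The alternatives were other scalings, tests, filters, a replicate block, 1 fit of all 12 libraries, an FDR of 0.01 and leaving out each library. DESeq2 1.42.0 was one of them. The edgeR fit was tested on simulated data. No libraries agreed within sampling noise.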

Additional observations from a re-analysis of the deposited data

How the results depend on the processing

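The calls of HERPUD1, SEL1L, SYVN1, EDEM1, OS9 and DERL2 in both glucose comparisons, of DERL1 in HGV against LGV, of SEL1L and DERL1 in LGV against LG and of SEL1L and DERL2 in HGV against HG passed the FDR of 0.05 in all 15 alternatives that refitted the data. The 3 libraries per group limit the smaller changes. The number of the 9 genes called in LGV against LG was 5 with upper quartile factors, and 2 to 4 without 1 library. In HGV against HG it was 2 at an FDR of 0.01 and 2 to 7 without 1 library, in HG against LG 6 to 8 and in HGV against LGV 7 throughout. The calls of SYVN1 and OS9 in HGV against HG were lost with DESeq2 (adjusted p = 0.0914 and 0.0613), with its size factors in edgeR (0.0836 and 0.0734) and in 1 fit of all 12 libraries (0.0880 and 0.0997). Of the further 69 ERAD genes, 16 were called at an FDR of 0.01 in LGV against LG and 16 in HGV against HG. Without 1 library, 17 to 30 of them were called in HG against LG, with 17 without LG replicate 1, 23 to 38 in HGV against LGV, with 23 without LGV replicate 3, and 18 to 31 in LGV against LG, with 18 without LG replicate 1.

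Over all genes, 1852 in HG against LG and 4263 in HGV against LGV passed at an FDR of 0.01, and leaving out 1 library gave 1933 (without LG replicate 1) to 5338 in HG against LG. For the interaction over all genes the count was 1 with library size scaling, 202 with the likelihood ratio test, 162 with DESeq2, 1 at an FDR of 0.01 and 1 to 217 without 1 library. The values that changed sign were all far from passing. EDEM3 in HGV against LGV was at 0.011 with upper quartile and 0.0091 with library size scaling, and at -0.20 to 0.083 without 1 library, where EDEM2 ran from -0.075 to 0.16. In LGV against LG, HERPUD1 was at 0.071 with library size scaling and SYVN1 at 0.0094 with upper quartile, 0.090 with library size and -0.17 to 0.065 without 1 library. The interaction without 1 library ran from -0.058 to 0.26 for EDEM3 and from -0.14 to 0.11 for OS9. Library size scaling moved the median log2 fold change of all genes by about 0.1 or more in each pairwise comparison, to 0.106 in HG against LG and 0.156 in LGV against LG. The cause of these changes was not tested.

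The labels do not say whether equal replicate numbers mark paired libraries. The correlations of deviations from the group mean between same-numbered libraries ran from -0.198 to 0.316, and not every library correlated best with its own number. With the replicate block, 3351 genes were called in HG against LG (3813 without it) and 7308 in HGV against LGV (6604 without it). The block gave 6971 in LGV against LG (6638 without it), 8229 in HGV against HG (7456) and 13 for the interaction (7). Among the 9 genes, OS9 lost its call in HGV against HG (adjusted p = 0.0541) and EDEM3 gained one (0.0188).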

Other observations

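The regulators of the unfolded protein response, which control many ERAD genes, did not move as one. Of 12 listed, 7 were lower and 1 higher in HG against LG, and 5 lower and 2 higher in HGV against LGV. Among all genes tested, 12.7% were lower and 12% higher in the first comparison, and 19.5% and 21.2% in the second. DDIT3, a transcription factor induced by ER stress, fell by 1.70 (adjusted p = 4.04e-05) and 1.44 (adjusted p = 0.000182), although its exons overlap other genes over 31.6% of their length on the other strand. The sensors EIF2AK3 (PERK), ERN1 (IRE1) and ATF6 fell in both, by 1.00 (adjusted p = 7.31e-05), 0.89 (adjusted p = 0.000281) and 0.85 (adjusted p = 0.000162) without VPA and by 1.07 (adjusted p = 9.46e-06), 0.84 (adjusted p = 1.00e-04) and 1.05 (adjusted p = 4.00e-06) with it. XBP1, the transcription factor that activates many ERAD genes once its RNA is spliced, did not pass in either (0.29, adjusted p = 0.0870, and 0.16, adjusted p = 0.408). Gene counts do not tell its spliced from its unspliced RNA.

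With VPA, 4 regulators were higher and 3 lower in LGV against LG, and 4 higher and 2 lower in HGV against HG, a share of 58.3% and 50%, against 41.6% and 46.1% of all genes. XBP1 fell by 0.78 (adjusted p = 0.000279) and 0.88 (adjusted p = 0.000147). CREB3, a transcription factor anchored in the ER membrane, rose by 0.53 (adjusted p = 0.00355) and 0.87 (adjusted p = 0.000106), and the related CREB3L2 by 0.35 (adjusted p = 0.0230) and 0.75 (adjusted p = 0.000306). CREB3L3, the liver member of this family, rose in all 4 comparisons, by 0.43 to 0.49.

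Counts for the proteasome subunits, which carry out the last step of ERAD, are given beside the share of all genes called, which was 24.7% in HG against LG, 40.7% in HGV against LGV, 41.6% in LGV against LG and 46.1% in HGV against HG. Of 32, 3 were lower and none higher in HG against LG, 3 lower and 2 higher in HGV against LGV, 7 lower in LGV against LG, and 5 lower and 2 higher in HGV against HG, which is 9.38%, 15.6%, 21.9% and 21.9% of them. Of the 10 hepatocyte markers, 2 were higher and 1 lower, 4 higher and 1 lower, 7 lower, and 1 higher and 3 lower in the same order, or 30%, 50%, 70% and 40%. The 7 lower in LGV against LG compare with 19.9% of all genes lower there. Of the markers of other cell types, 1 of 2 tested was higher, 3 of 4 were higher, 2 of 3 were higher and 1 lower, and 3 of 4 were higher and 1 lower. The number tested varied because CDH5 and COL1A1 were left out where their mean count was under 10. Both were called higher wherever they were tested, at low levels. COL1A1 had a mean of 0.226 CPM in LG and 1.09 in LGV, and its entry into that comparison rested on LGV. These counts are therefore not read as a result.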
